A study of Mus musculus with 13 samples.

Results

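The heat shock proteins and their co-chaperones form 89 genes of the mouse brain tables, taken as every entry whose symbol begins with Hspa, Hspb, Hspd, Hspe, Hsph, Hsp90, Dnaja, Dnajb or Dnajc, or with Hsf or Bag followed by a digit. Of these, 88 were among the 21056 genes listed in all 4 deposited tables, and Dnajc22 was listed for the sham groups only, with 0 to 2 reads a library. RNA from the brains of male mice was sequenced in 4 groups: tMCAO_MG_DE (n = 2), tMCAO_MG_CON (n = 4), sham_MG_DE (n = 4) and sham_MG_CON (n = 3). The tMCAO animals had the right middle cerebral artery occluded with a filament for 60 min, and the sham animals had sham surgery. Their brains are called stroke and sham brains. The MG_DE animals received diphtheria toxin at 50 ng/g on 3 days to deplete microglia, and the MG_CON animals received normal saline, which gives depleted and control brains. All animals carried CX3CR1creER/+ and an inducible diphtheria toxin receptor, Rosa26iDTR/+, and all had 2 doses of tamoxifen at 7 to 8 weeks of age, 30 days before toxin or saline. The age at surgery is given as 6 to 8 weeks, which conflicts with that schedule. The locus number in the genotype entries takes 12 different values and was read as 1 genotype, which is an assumption. Cre expressed from Cx3cr1 is active in microglia and in other mononuclear phagocytes, so the toxin is not limited to microglia by the genotype. The sources used here give neither the brain region taken nor the time from occlusion to sampling. Animal numbers differ between libraries, which were read as separate animals, and p-values measure only the spread between these libraries.

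Heat shock proteins are molecular chaperones that hold, fold or refold other proteins. When misfolded protein accumulates in the cytosol, the transcription factor HSF1 trimerises, binds heat shock elements and induces the HSP70, HSP110, HSP90 and small heat shock protein genes, and after cerebral ischaemia the inducible HSP70 is a classical marker of stressed neurons. HSP70 proteins work in a cycle with J proteins (the Dnaj families), which deliver clients and stimulate ATP hydrolysis, and with nucleotide exchange factors such as the BAG proteins and HSP110. The endoplasmic reticulum and the mitochondria have their own HSP70, HSP90 and J proteins, and those of the endoplasmic reticulum are induced by the unfolded protein response through ER stress elements.

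Promoters of 67 of the 89 genes were in the RefSeq table (build GRCm38.p6), each running from 250 bases before to 50 bases after a transcription start. The shortest heat shock element searched, 2 units (GAANNTTC or TTCNNGAA), was in 15.1% of the 32851 promoters, and an element of 4 units (GAA and TTC in turn, 2 bases apart, which holds the 2-unit and 3-unit forms) was in 0.0244%. The ER stress element (CCAAT and CCACG separated by 9 bases, searched like the others on both strands) was in 0.119%. The sequences below are those of the strongest stroke-responsive pair, Hspa1a (chr17:34972107-34972406, minus strand) and Hspa1b (chr17:34959189-34959488, minus strand), of the mitochondrial gene Hspe1 (chr1:55087898-55088197, plus strand), and of the 3 endoplasmic reticulum members whose window held the ER stress element, Hspa5 (chr2:34771840-34772139, plus strand), Hsp90b1 (chr10:86705395-86705694, minus strand) and Dnajc3 (chr14:118937682-118937981, plus strand). Capitals mark the 2-unit heat shock element in Hspa1a and Hspa1b, the 4-unit element in Hspe1 and the ER stress elements in the other 3, all written 5′ to 3′ on the gene's strand.
Hspa1a: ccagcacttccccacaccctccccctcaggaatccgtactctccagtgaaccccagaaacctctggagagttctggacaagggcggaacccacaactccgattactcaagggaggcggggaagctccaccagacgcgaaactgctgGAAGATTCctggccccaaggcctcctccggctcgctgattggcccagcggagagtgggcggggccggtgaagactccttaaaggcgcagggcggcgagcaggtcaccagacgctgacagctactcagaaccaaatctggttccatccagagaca
Hspa1b: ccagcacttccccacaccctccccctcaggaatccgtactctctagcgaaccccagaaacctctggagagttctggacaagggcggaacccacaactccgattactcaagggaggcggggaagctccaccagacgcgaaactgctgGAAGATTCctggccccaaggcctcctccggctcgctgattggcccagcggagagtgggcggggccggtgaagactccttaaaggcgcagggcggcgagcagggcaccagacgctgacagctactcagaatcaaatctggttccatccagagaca
Hspe1: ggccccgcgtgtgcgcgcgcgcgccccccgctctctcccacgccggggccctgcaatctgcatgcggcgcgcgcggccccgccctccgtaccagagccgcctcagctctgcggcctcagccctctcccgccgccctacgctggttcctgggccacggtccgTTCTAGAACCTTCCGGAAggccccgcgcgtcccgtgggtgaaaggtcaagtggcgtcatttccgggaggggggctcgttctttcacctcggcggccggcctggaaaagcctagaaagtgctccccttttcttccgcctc
Hspa5: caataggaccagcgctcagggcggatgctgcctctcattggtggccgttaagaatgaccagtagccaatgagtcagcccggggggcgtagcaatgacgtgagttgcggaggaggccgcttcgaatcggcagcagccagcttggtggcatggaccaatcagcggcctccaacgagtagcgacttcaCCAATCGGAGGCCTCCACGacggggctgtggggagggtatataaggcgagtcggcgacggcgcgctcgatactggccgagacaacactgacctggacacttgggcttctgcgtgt
Hsp90b1: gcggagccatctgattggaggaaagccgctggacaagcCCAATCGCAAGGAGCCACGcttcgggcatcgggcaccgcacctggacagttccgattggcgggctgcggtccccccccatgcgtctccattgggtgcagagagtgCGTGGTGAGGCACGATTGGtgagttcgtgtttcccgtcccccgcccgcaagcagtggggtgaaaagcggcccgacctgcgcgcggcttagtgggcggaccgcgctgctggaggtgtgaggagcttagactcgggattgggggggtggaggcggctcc
Dnajc3: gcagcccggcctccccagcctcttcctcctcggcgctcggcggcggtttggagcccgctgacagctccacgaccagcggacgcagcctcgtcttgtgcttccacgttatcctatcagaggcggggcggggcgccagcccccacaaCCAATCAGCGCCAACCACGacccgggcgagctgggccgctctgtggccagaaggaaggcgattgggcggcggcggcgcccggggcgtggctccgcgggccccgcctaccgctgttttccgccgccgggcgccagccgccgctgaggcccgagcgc
The Hspa1a and Hspa1b promoters had the same base at 296 of 300 positions, and in both the element began 104 bases before the start. The element of Hspe1 began 89 bases before its start, and the same bases lie 144 to 127 bases before the start of Hspd1, which is transcribed from the other strand. Hspb1 held 2 matches of the 2-unit element, 117 and 97 bases before its start, and Hsph1 held a 3-unit element (in 0.603% of promoters) just after its start. Counted per gene, 18 of the 67 (26.9%) held a 2-unit element, against 17% of the 27025 genes in the table. A 3-unit element was in 4 of the 67 (Hspd1, Hspe1, Hsph1 and Dnajb6), against 0.662% of all genes, and an ER stress element in 3, against 0.137%. The site shared by Hspd1 and Hspe1 counts for both. Dnajb1 and Hspa1l, which rose in both stroke comparisons below, held no heat shock element searched. Dnaja4, Dnajb4, Dnajb6, Dnajc10 and Dnajc27, which rose in neither, held at least a 2-unit element. Hsp90aa1, Hsp90ab1, Hspa8 and Hspa9 had no promoter to search. Dnajb11 held the ER stress element II (ATTGG and CCACG separated by 1 base), which was in 0.0365% of promoters. A match is a description of these letters in this window and no evidence of binding.

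Libraries held 16240416 to 22081167 counts, of which the 88 genes took 0.795% to 1.16%. Csf1r, the receptor that microglia need to survive, was at 6.07 and 8.5 CPM (the count as a share of the TMM-scaled library total) in tMCAO_MG_DE and 7.57, 10.2, 16 and 6.1 CPM in sham_MG_DE, against 76.3, 86.2, 97.4 and 91.4 CPM in tMCAO_MG_CON and 91.9, 93.3 and 92.8 CPM in sham_MG_CON, and the microglial marker Tmem119 likewise did not overlap between depleted and control libraries. Replicate 4 of tMCAO_MG_CON was grouped by its title although its treatment entry reads sham surgery. Replicate 1 of sham_MG_DE stood apart from the other 3 on the first principal component (0.902, against 21.9 to 32.5). Replicate 2 of sham_MG_CON and replicate 3 of sham_MG_DE had high neutrophil markers (summed 32.3 and 32.8 CPM, against 1.23 to 9.69 in the other libraries, with the neutrophil marker Ly6g at or under 0.342 CPM in all 13), and replicate 2 of tMCAO_MG_CON had high mural and smooth muscle markers (187 CPM, against 62.1 to 108). A gene is called higher or lower here when edgeR's quasi-likelihood test gave a Benjamini-Hochberg adjusted p under 0.05 over the 16940 genes tested. In brain tissue, fewer cells of a type and less RNA per cell cannot be told apart.

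Per unit of length, Hsp90ab1, the constitutive cytosolic HSP90, was the most abundant of the 88 genes in all 4 groups, with a mean of 336 ± 14.4 FPKM (SD, n = 2) in tMCAO_MG_DE, 292 ± 37.8 (n = 4) in tMCAO_MG_CON, 215 ± 4.04 (n = 4) in sham_MG_DE and 218 ± 10.7 (n = 3) in sham_MG_CON. Hspa8, the constitutive HSP70, and Hsp90aa1, the inducible HSP90, took the next 2 places in every group. Hspa1b ranked 7 of 88 in tMCAO_MG_DE (57.5 ± 7.64 FPKM) and 12 in tMCAO_MG_CON (34.9 ± 8.90 FPKM), but 60 in sham_MG_DE (2.48 ± 0.446 FPKM) and 61 in sham_MG_CON (2.69 ± 0.592 FPKM). In sham_MG_CON, 39 of the 88 genes averaged at least 10 FPKM and 16 averaged under 1 FPKM.

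The inducible cytosolic chaperones rose in stroke brains with and without depletion. In depleted brains (tMCAO_MG_DE against sham_MG_DE), 20 of the 80 tested genes rose and 2 fell, against 6.59% and 5.84% of all genes tested. In control brains (tMCAO_MG_CON against sham_MG_CON), 16 rose and 3 fell, against 5.14% and 3.31% of all genes (8.44% in either direction). The comparisons share no library but share the estimate of spread. In both, 15 genes rose, which is 75% of the 20 and 93.8% of the 16. The matching overlap over all genes was not computed, so these shares cannot be called particular to the members. The median log2 fold change of the 80 genes was 0.11 in depleted brains and 0.09 in control brains, against -0.00 and 0.02 over all genes. Libraries of the compared groups did not overlap, with stroke higher, for 25 members in depleted brains (19.5% of all genes) and for 20 in control brains (13.1%). They did not overlap, with stroke lower, for 6 members in each (17.7% and 10.5%). Without the entries named as pseudogenes, 78 genes were tested. Of these, 19 rose and 2 fell in depleted brains, and 15 rose and 3 fell in control brains.

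**Figure D1:**
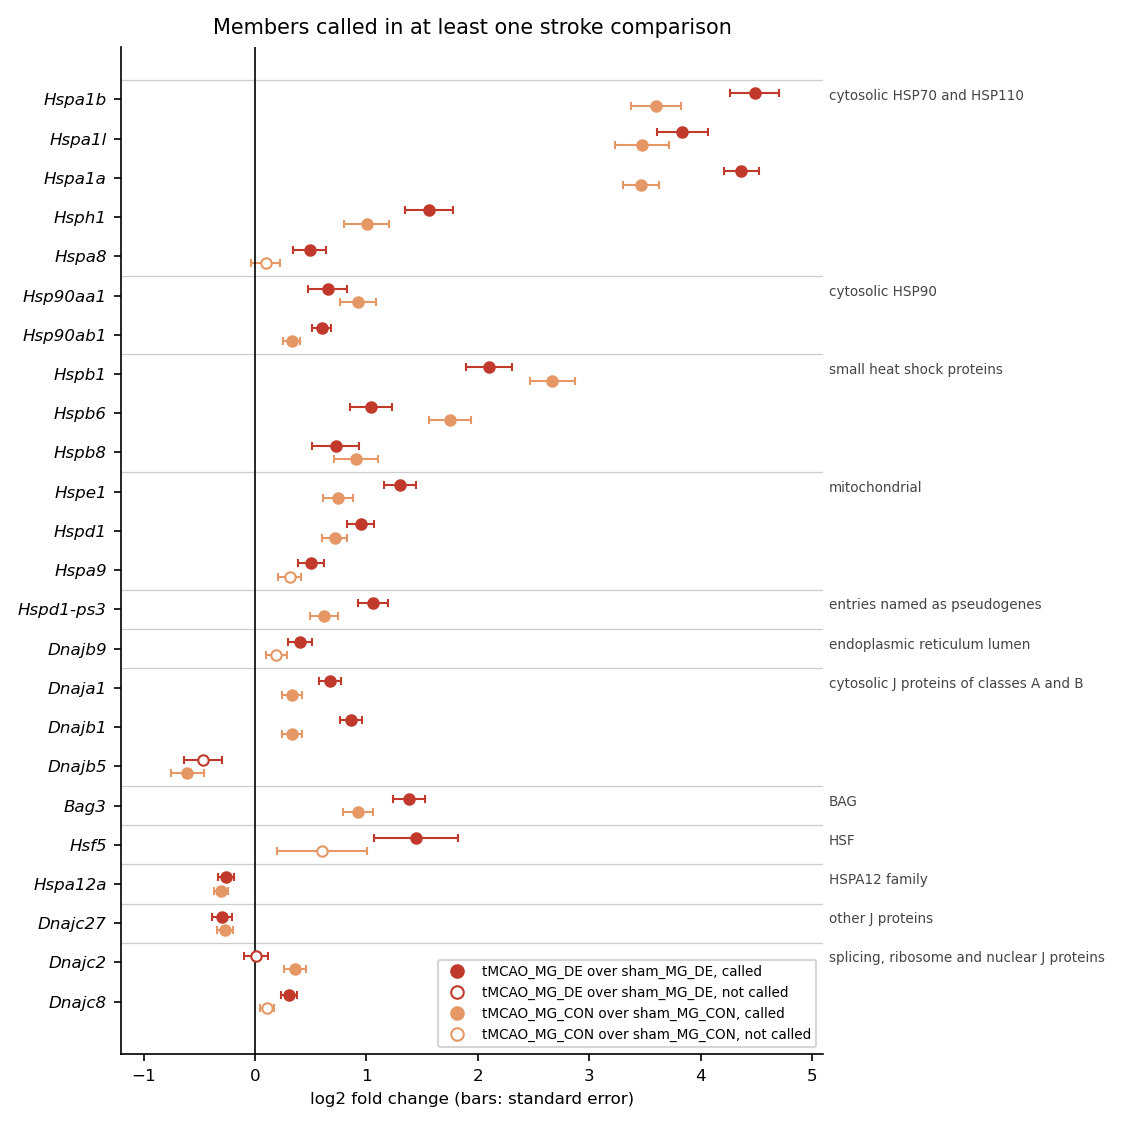
Log2 fold changes (horizontal axis) with standard errors for the 24 genes called in at least one stroke comparison, grouped by class, with the depleted comparison (red) above the control comparison (orange) and open symbols for values that were not called. Hspa1a, Hspa1b and Hspa1l lie at 3.47 or more in both comparisons, and only Hspa12a, Dnajc27 and Dnajb5 lie below 0 in both.

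The largest responses were those of the inducible HSP70 genes on chromosome 17. Hspa1a (34969190 to 34972156 in GRCm38, minus strand, 1 exon), the inducible cytosolic HSP70, had 162.2 and 134 CPM in tMCAO_MG_DE, against 7.46, 7.18, 8.22 and 5.87 CPM in sham_MG_DE. In control brains it had 102, 70.2, 97.5 and 96.3 CPM in tMCAO_MG_CON, against 7.02, 8.91 and 8.86 CPM in sham_MG_CON. Its neighbour Hspa1b (34956436 to 34959238, minus strand), which encodes a nearly identical protein, had 173 and 145.5 CPM in tMCAO_MG_DE, against 6.92, 8.86, 6.21 and 6.32 CPM in sham_MG_DE. Without depletion it had 124, 68.4, 84.8 and 102 CPM in tMCAO_MG_CON, against 5.84, 8.67 and 8.98 CPM in sham_MG_CON. Every stroke library exceeded every sham library for both genes by a wide margin, replicate 4 of tMCAO_MG_CON included. Hspa1a rose 20.6-fold in depleted brains (log2 fold change 4.37 ± 0.16, adjusted p = 8.65e-09) and 11.1-fold in control brains (log2 fold change 3.47 ± 0.16, adjusted p = 1.99e-07). For Hspa1b the log2 fold changes were 4.49 ± 0.22, adjusted p = 2.14e-07 in depleted brains and 3.60 ± 0.23, adjusted p = 2.90e-06 in control brains. Because 58.8% of the 50-base windows of Hspa1a also occur in Hspa1b, the counting could have divided their reads in an arbitrary way, and their values are best read as 1 locus. Of the exonic length of Hspa1a, 19.0% also overlaps Gm20481 on the opposite strand. Hspa1l, a testis-enriched HSP70 that lies beside Hspa1a on the opposite strand, had 40.2 and 32.5 CPM in tMCAO_MG_DE, against 3.46, 2.23, 2.13 and 2.34 CPM in sham_MG_DE. The control brains had 28.4, 15.6, 23 and 24.9 CPM in tMCAO_MG_CON, against 1.93, 2.57 and 1.69 CPM in sham_MG_CON, with log2 fold changes of 3.84 ± 0.23, adjusted p = 1.78e-06 in depleted brains and 3.48 ± 0.24, adjusted p = 5.87e-06 in control brains. Its counts are uncertain: 71.9% of its exonic length overlaps the antisense gene Gm10501, 9.57% of its windows also occur in Hspa1a, and whether reads were counted by strand is not given. In the stroke libraries its CPM was 0.223 to 0.279 of that of Hspa1a, against 0.191 to 0.464 in the sham libraries.

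Hsph1, the HSP110 that exchanges nucleotide on HSP70 and takes part in dissolving aggregates, was the next in the class. It had 636 and 465 CPM in tMCAO_MG_DE, against 241, 157, 197 and 149.8 CPM in sham_MG_DE. Brains with microglia had 675, 438, 513 and 404 CPM in tMCAO_MG_CON, against 298, 228 and 234 CPM in sham_MG_CON. Stroke and sham libraries did not overlap in either pair, and the rise was 2.96-fold in depleted brains (log2 fold change 1.56 ± 0.21, adjusted p = 0.00112) and 2.0-fold in control brains (log2 fold change 1.0 ± 0.20, adjusted p = 0.00938). Hspa8, of whose 50-base windows 52.7% also occur in other genes, rose in depleted brains (log2 fold change 0.49 ± 0.15, adjusted p = 0.0436), where it had 921 and 1008 CPM in tMCAO_MG_DE against 817, 623, 680.1 and 622 CPM in sham_MG_DE. In control brains it did not pass the test (log2 fold change 0.09 ± 0.13, adjusted p = 0.722), with 1143, 795, 1106 and 949 CPM in tMCAO_MG_CON overlapping 1074, 864 and 866 CPM in sham_MG_CON. The tMCAO_MG_DE libraries lay within the range of sham_MG_CON, and the sham_MG_DE libraries lay below it. Between tMCAO_MG_DE and tMCAO_MG_CON, Hspa8 did not pass (log2 fold change -0.05 ± 0.15, adjusted p = 0.843). The constitutive HSP110 genes Hspa4 and Hspa4l and the germ cell HSP70 Hspa2 passed in neither comparison, with log2 fold changes of -0.01, -0.08 and 0.03 in depleted brains and 0.08, -0.07 and -0.04 in control brains. The class therefore held 5 of 9 higher genes in depleted brains and 4 of 9 in control brains, and none lower. These counts take Hspa1a, Hspa1b and Hspa1l as separate genes, although their reads are not fully separate.

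**Figure D2:**
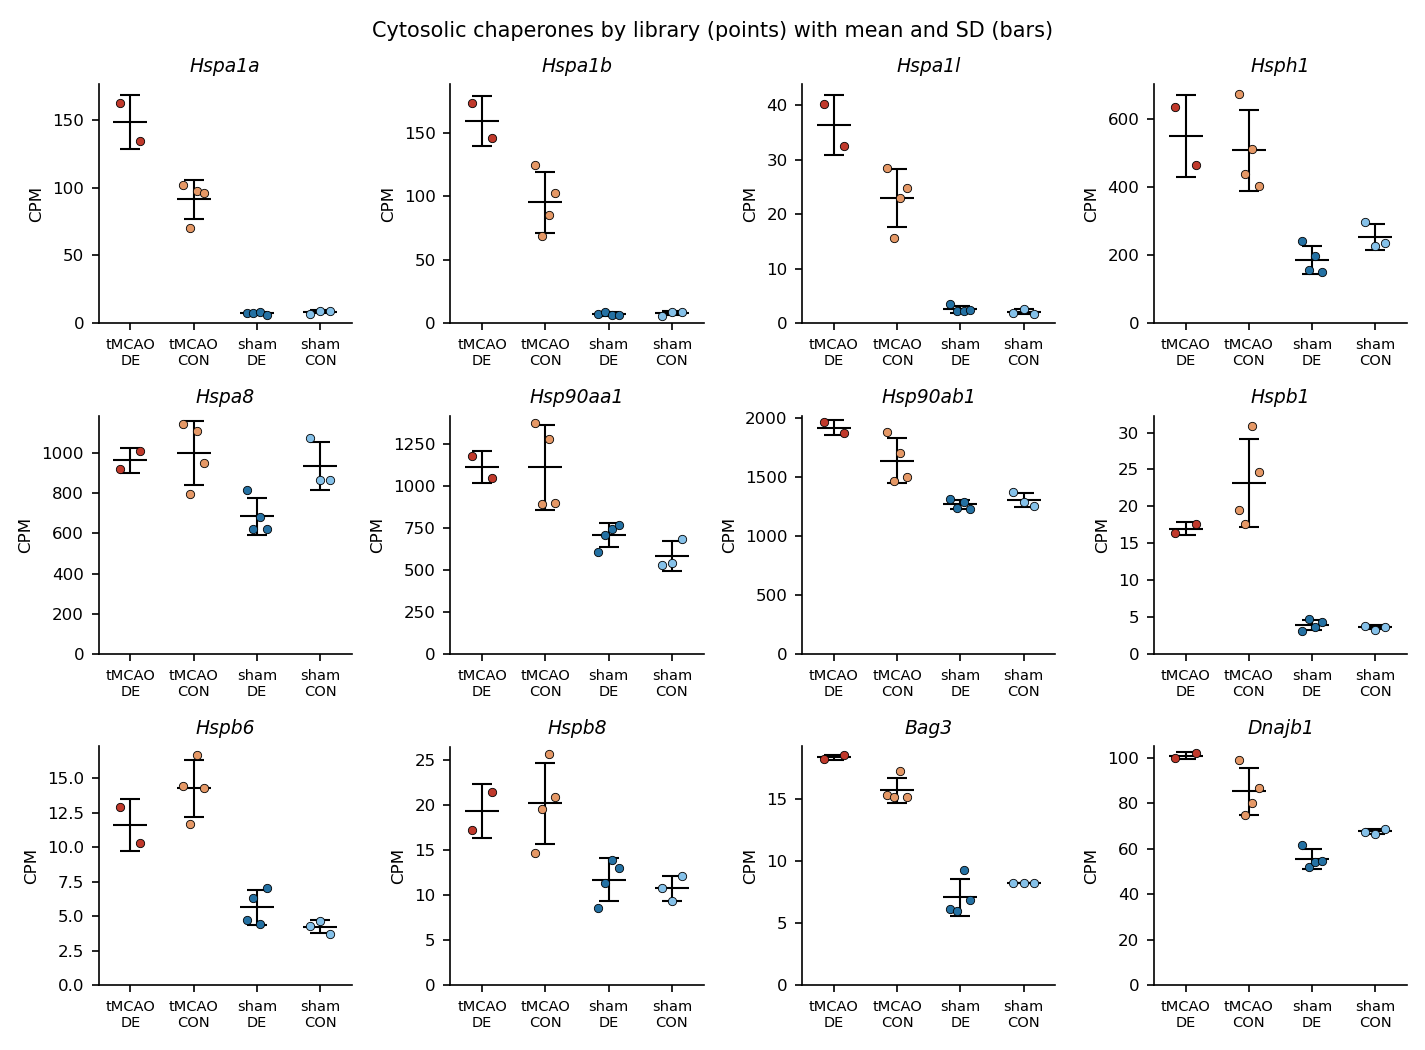
CPM (vertical axis of each panel, from 0) of 12 cytosolic chaperone genes in every library (points) of the 4 groups, with the group mean and SD (bars). Hspa1a, Hspa1b and Hspa1l are under 10 CPM in every sham library and at 15.6 CPM or more in every stroke library, while Hspa8 overlaps between the control groups.

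Both cytosolic HSP90 genes rose in both comparisons. Hsp90aa1 had 1180.2 and 1047 CPM in tMCAO_MG_DE, against 608, 709, 748 and 767 CPM in sham_MG_DE. In the saline groups it had 1378, 892, 1284 and 898 CPM in tMCAO_MG_CON, against 528, 542 and 689 CPM in sham_MG_CON. The libraries did not overlap, and replicates 1 and 3 were the highest of tMCAO_MG_CON. The log2 fold change was 0.65 ± 0.17, adjusted p = 0.0269 in depleted brains and 0.92 ± 0.16, adjusted p = 0.00403 in control brains, and 58.5% of its 50-base windows also occur in other genes, mostly in the processed copy Gm12346. Hsp90ab1 rose 1.51-fold in depleted brains (log2 fold change 0.60 ± 0.09, adjusted p = 0.00162) and 1.26-fold in control brains (log2 fold change 0.33 ± 0.08, adjusted p = 0.0234). Summed, the pair reached 3147 and 2922 CPM in tMCAO_MG_DE, against 1921 to 2040 CPM in sham_MG_DE, and 2361 to 3261 CPM in tMCAO_MG_CON, against 1831 to 1946 CPM in sham_MG_CON.

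Small heat shock proteins bind unfolding proteins without ATP and carry the alpha-crystallin domain. The class here was taken by the Hspb symbol and includes Hspb11, for which neither property was checked and which passed in neither comparison. Of the 7 tested genes of the class, 3 rose in each comparison. Hspb1 (HSP25 in mouse, an actin-stabilising chaperone of astrocytes and vessels) had 16.4 and 17.6 CPM in tMCAO_MG_DE, against 3.13, 4.73, 3.66 and 4.27 CPM in sham_MG_DE. In control brains it had 19.5, 17.6, 30.9 and 24.6 CPM in tMCAO_MG_CON, against 3.86, 3.29 and 3.73 CPM in sham_MG_CON. No libraries overlapped, and the rise was 4.28-fold in depleted brains (log2 fold change 2.1 ± 0.20, adjusted p = 0.000111) and 6.37-fold in control brains (log2 fold change 2.67 ± 0.20, adjusted p = 1.17e-05). Hspb6 (HSP20, abundant in smooth muscle) had 12.9 and 10.3 CPM in tMCAO_MG_DE, against 4.7, 6.32, 4.45 and 7.01 CPM in sham_MG_DE. Without depletion it had 14.4, 11.6, 16.6 and 14.3 CPM in tMCAO_MG_CON, against 4.29, 4.66 and 3.73 CPM in sham_MG_CON, again without overlap, and rose 2.06-fold in depleted (log2 fold change 1.04 ± 0.19, adjusted p = 0.00543) and 3.37-fold in control brains (log2 fold change 1.75 ± 0.18, adjusted p = 0.000144). Hspb8 (HSP22, the partner of Bag3 in selective autophagy) rose 1.65-fold in depleted brains (log2 fold change 0.73 ± 0.21, adjusted p = 0.0405) and 1.88-fold in control brains (log2 fold change 0.91 ± 0.20, adjusted p = 0.0137). Hspb2, Hspb3 and Hspb7, genes of heart and skeletal muscle, stayed at or under 3.75 CPM in every library and passed in neither comparison. Of the windows of Hspb1, 51.6% also occur in the pseudogene Hsp25-ps1. The 6 mural and smooth muscle markers summed to 74.0 and 88.0 CPM in tMCAO_MG_DE and 83.5 to 187 CPM in tMCAO_MG_CON, against 62.5 to 92.2 CPM in sham_MG_DE and 62.1 to 74.4 CPM in sham_MG_CON. The library with the highest sum, replicate 2 of tMCAO_MG_CON, had the lowest Hspb1 and Hspb6 of its group. Its Hspb8 (19.6 CPM) was above that of replicate 1 (14.7 CPM). The part of vessel cells in the change was not tested.

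The mitochondrial chaperonin rose in both comparisons. Hspd1 (HSP60) and Hspe1 (HSP10), the barrel and the lid of that chaperonin, are transcribed head to head on chromosome 1 (55077835 to 55088243 and 55088132 to 55091307) from the promoter shown above, and their exons overlap by 112 bases. Hspe1 had 63.8 and 51.9 CPM in tMCAO_MG_DE, against 23.6, 24, 24.1 and 22.1 CPM in sham_MG_DE. The control brains had 57.2, 45, 45.9 and 44.5 CPM in tMCAO_MG_CON, against 35.6, 25.1 and 25.2 CPM in sham_MG_CON. Hspd1 had 232 and 217 CPM in tMCAO_MG_DE, against 122, 112, 125 and 106 CPM in sham_MG_DE. Brains with microglia had 224, 158, 197 and 161 CPM in tMCAO_MG_CON, against 116, 107 and 116 CPM in sham_MG_CON. Neither gene overlapped between stroke and sham libraries. Hspe1 rose 2.47-fold in depleted brains (log2 fold change 1.30 ± 0.14, adjusted p = 0.00028) and 1.68-fold in control brains (log2 fold change 0.75 ± 0.13, adjusted p = 0.00505), and Hspd1 rose 1.93-fold in depleted (log2 fold change 0.95 ± 0.12, adjusted p = 0.00081) and 1.64-fold in control brains (log2 fold change 0.71 ± 0.11, adjusted p = 0.00254). The pseudogene entry Hspd1-ps3 was called in the same direction (1.06 ± 0.13, adjusted p = 0.000722 in depleted brains and 0.62 ± 0.12, adjusted p = 0.00932 in control brains), and 60.7% of its windows also occur in Hspd1, so its reads cannot be told apart from those of its parent. Hspa9, the mitochondrial HSP70, rose in depleted brains (log2 fold change 0.50 ± 0.11, adjusted p = 0.0139) and did not pass in control brains (log2 fold change 0.31 ± 0.10, adjusted p = 0.0816). The other 7 mitochondrial members, among them the J proteins Dnaja3, Dnajc15 and Dnajc19, passed in neither comparison.

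In the endoplasmic reticulum lumen 1 of 8 members rose in depleted brains and 0 of 8 in control brains (at an unadjusted p under 0.05, edgeR gave 5 and 0). The gene that rose was Dnajb9 (ERdj4, a J protein that represses the stress sensor IRE1), with 60.3 and 64.3 CPM in tMCAO_MG_DE, against 39.2, 47.7, 52 and 49.6 CPM in sham_MG_DE (log2 fold change 0.40 ± 0.11, adjusted p = 0.0278). Hspa5 (BiP, the HSP70 of the endoplasmic reticulum) did not pass in either comparison (0.63 ± 0.29, adjusted p = 0.175 in depleted brains, 0.26 ± 0.26, adjusted p = 0.603 in control brains), and neither did Hsp90b1 (GRP94), at 0.24 and 0.03 on the log2 scale. The 2 libraries of tMCAO_MG_DE had 215 and 102 CPM of Hspa5, the first above and the second within the range of sham_MG_DE (72.2 to 142.2 CPM).

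Among the cytosolic J proteins of classes A and B, 9 of 11 were tested, and Dnajb1 and Dnaja1 rose in both comparisons. Dnajb1 (HSP40, the main inducible partner of HSP70) had 99.999 and 102 CPM in tMCAO_MG_DE, against 61.6, 51.8, 54 and 54.4 CPM in sham_MG_DE. In the saline groups it had 99.1, 74.7, 80.3 and 86.8 CPM in tMCAO_MG_CON, against 67.5, 66.7 and 68.7 CPM in sham_MG_CON. The stroke libraries lay above the sham libraries in both pairs, and the log2 fold changes were 0.87 ± 0.10, adjusted p = 0.000378 in depleted and 0.33 ± 0.09, adjusted p = 0.0392 in control brains. Dnaja1 changed by 0.67 ± 0.10, adjusted p = 0.00144 in depleted and by 0.33 ± 0.09, adjusted p = 0.0354 in control brains. Dnajb5, a J protein that binds class II histone deacetylases, fell in control brains (log2 fold change -0.61 ± 0.15, adjusted p = 0.0227), with 106, 98.7, 120.1 and 124 CPM in tMCAO_MG_CON against 210.3, 132 and 171 CPM in sham_MG_CON. In depleted brains it had 138 and 119 CPM in tMCAO_MG_DE against 199.6, 198, 151 and 162.1 CPM in sham_MG_DE and did not pass (log2 fold change -0.46 ± 0.17, adjusted p = 0.092). In both pairs each stroke library lay below each sham library. Dnaja4, Dnajb2, Dnajb4 and Dnajb6 passed in neither comparison, at 0.01, -0.04, 0.29 and 0.09 in depleted brains and 0.24, 0.02, 0.20 and 0.03 in control brains on the log2 scale. Of the other J proteins, Dnajc8 (a splicing factor partner) rose in depleted brains (log2 fold change 0.31 ± 0.07, adjusted p = 0.0183), and Dnajc2 (which acts at the ribosome) rose in control brains (log2 fold change 0.36 ± 0.10, adjusted p = 0.0399). Dnajc27, a small GTPase with a J domain, fell in both (-0.30 ± 0.09, adjusted p = 0.0414 in depleted and -0.27 ± 0.08, adjusted p = 0.0448 in control brains). The synaptic and clathrin J proteins Dnajc5 and Dnajc6 passed in neither, with log2 fold changes between -0.13 and 0.04. None of the 5 J proteins of the endoplasmic reticulum membrane and of the 2 HSP70 binding proteins, Hspbp1 and Hspbap1, passed in either comparison, where edgeR gave 0 of these 7 at an unadjusted p under 0.05.

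Bag3, the BAG protein that couples HSP70 to Hspb8 and autophagy, was the only 1 of the 6 BAG genes called in either stroke comparison. It had 18.2 and 18.5 CPM in tMCAO_MG_DE, against 6.16, 6.0, 9.26 and 6.84 CPM in sham_MG_DE. In control brains it had 15.3, 15.1, 17.2 and 15.1 CPM in tMCAO_MG_CON, against 8.26, 8.25 and 8.24 CPM in sham_MG_CON. The libraries did not overlap, and Bag3 rose 2.61-fold in depleted brains (log2 fold change 1.38 ± 0.14, adjusted p = 0.000189) and 1.9-fold in control brains (log2 fold change 0.93 ± 0.13, adjusted p = 0.00153). The mRNAs of Hsf1 and Hsf2, the main heat shock factors, did not pass the test. Hsf1 was at -0.39 ± 0.13, adjusted p = 0.0649 in depleted and -0.18 ± 0.11, adjusted p = 0.357 in control brains, and Hsf2 was at 0.21 ± 0.12, adjusted p = 0.249 in depleted and 0.02 ± 0.10, adjusted p = 0.921 in control brains. Hsf5, a testis factor near the lower limit of detection, was called in depleted brains (log2 fold change 1.45 ± 0.38, adjusted p = 0.0266), with 2.21 and 1.82 CPM in tMCAO_MG_DE against 0.594, 0.818, 0.609 and 0.912 CPM in sham_MG_DE. Hspa12a, a distant neuronal HSP70 relative, fell in both comparisons, with 259 and 286 CPM in tMCAO_MG_DE, against 332, 335, 323 and 319 CPM in sham_MG_DE. Without depletion it had 287, 261, 258 and 257 CPM in tMCAO_MG_CON, against 303, 345 and 336 CPM in sham_MG_CON (-0.26 ± 0.07, adjusted p = 0.0348 in depleted and -0.30 ± 0.06, adjusted p = 0.0123 in control brains). The 6 neuronal markers summed to 7016 and 7249 CPM in tMCAO_MG_DE and 6919 to 7665 CPM in tMCAO_MG_CON, against 7715 to 8694 CPM in sham_MG_DE and 8419 to 8879 CPM in sham_MG_CON. Among them, Snap25 and Syt1 were lower with stroke in both pairs without overlap, while Slc17a7 and Gad1 overlapped in both. Rbfox3 was higher in depleted brains (461 and 484 CPM, against 383 to 441 CPM) and overlapped in control brains. Map2 overlapped in control brains, and replicate 3 of sham_MG_DE had 1047 CPM of it, against 635 to 680 CPM in the rest of that group. The part of neurons in the fall of Hspa12a and Dnajc27 was not tested.

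**Figure D3:**
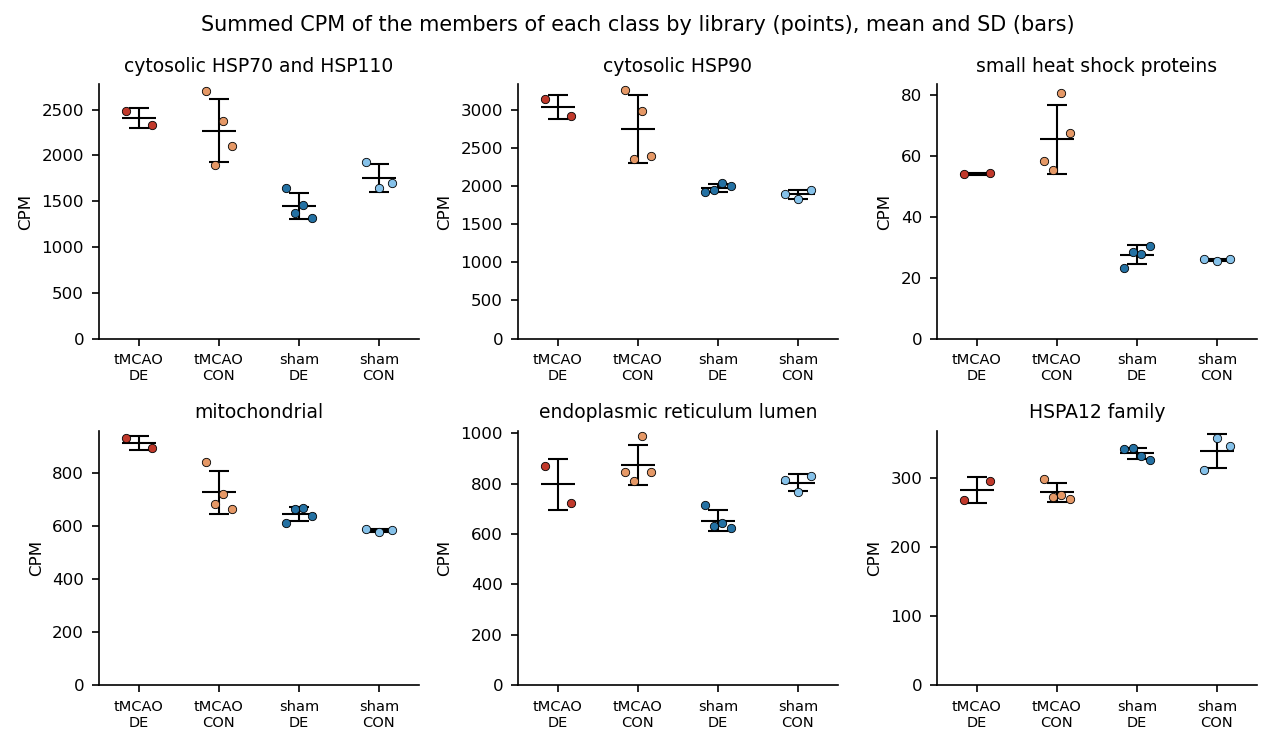
Summed CPM (vertical axis of each panel, from 0) of the members of 6 classes in every library (points), with the group mean and SD (bars). The HSP90 and small heat shock protein sums of all 6 stroke libraries lie above those of all 7 sham libraries, the endoplasmic reticulum sum is lowest in sham_MG_DE, and the HSPA12 sum is lower in the stroke libraries.

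Calls rested on few libraries for part of these genes. In 22 alternative settings, 12 of the 22 calls in depleted brains (Hspa1a, Hspa1b, Hspa1l, Hsph1, Hsp90ab1, Hspb1, Hspd1, Hspd1-ps3, Hspe1, Dnaja1, Dnajb1 and Bag3) and 9 of the 19 in control brains (Hspa1a, Hspa1b, Hspa1l, Hsp90aa1, Hspb1, Hspb6, Hspd1, Hspe1 and Bag3) held in every one, and no called fold change turned its sign. In depleted brains, the calls of Hspa8, Hspa9, Hspa12a, Hsp90aa1, Hspb8, Dnajb9, Dnajc8, Dnajc27 and Hsf5 ended without either tMCAO_MG_DE library, and that of Hspb6 ended without replicate 1, with adjusted p between 0.0747 and 0.340 at the highest. Leaving out sham_MG_DE replicate 1 ended the depleted calls of Hspa12a, Hsp90aa1, Hspb8, Dnajc27 and Hsf5, replicate 2 those of Hspa8, Hspa12a, Hsp90aa1 and Hspb8, replicate 3 those of Hspa8, Hspa12a, Dnajc27 and Hsf5, and replicate 4 those of Hspa8 and Hspa12a. Those of Hspa8, Hspb8 and Dnajc27 also ended without tMCAO_MG_CON replicate 4 or some library of sham_MG_CON. In control brains, leaving out replicate 3 of sham_MG_CON ended the calls of Hsph1, Hsp90ab1, Hspa12a, Hspd1-ps3, Dnaja1, Dnajb1, Dnajb5, Dnajc2 and Dnajc27, replicate 2 ended those of Hspb8, Hsp90ab1, Hspa12a, Dnaja1, Dnajb1, Dnajc2 and Dnajc27, and replicate 1 ended those of Hspb8, Dnaja1, Dnajb1, Dnajb5, Dnajc2 and Dnajc27. Leaving out single tMCAO_MG_CON libraries ended the control calls of Hsp90ab1 (replicate 3), Dnajb5 (replicate 2), Dnaja1 (replicates 1 and 3), Dnajc2 (replicates 1 and 3), Dnajb1 and Dnajc27 (replicates 1, 3 and 4). Those of Dnajb1, Dnajc2 and Dnajc27 also ended without some library of the depleted groups, which share the estimate of spread. The adjusted p of these control calls reached 0.0524 for Hsph1 and 0.154 for Dnajc2 at the highest.

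Related genes outside the 89 were read from lists of the same pathways, and their counts stand beside the 6.59% of all genes that rose and 5.84% that fell in depleted brains, and the 5.14% and 3.31% in control brains. Of 14 subunits of the cytosolic chaperonin TRiC and of prefoldin, which fold actin and tubulin, 6 rose in depleted brains and 3 in control brains, with medians of 0.25 and 0.24 on the log2 scale against -0.00 and 0.02 over all genes. Cct6a changed by 0.44 ± 0.09, adjusted p = 0.00883 in depleted and by 0.32 ± 0.08, adjusted p = 0.0279 in control brains. Among 14 tested further targets of heat shock factors, 6 rose in depleted brains and 4 in control brains. This list shares genes with others, that of the HSP90 co-chaperones among them, so the counts of the lists are not separate. Hmox1, haem oxygenase, had 55.9 and 60.3 CPM in tMCAO_MG_DE, against 4.92, 5.59, 4.39 and 4.73 CPM in sham_MG_DE. The control brains had 40.7, 77, 120.0 and 34.7 CPM in tMCAO_MG_CON, against 6.11, 4.42 and 6.15 CPM in sham_MG_CON, with log2 fold changes of 3.56 ± 0.38, adjusted p = 0.000208 in depleted and 3.61 ± 0.39, adjusted p = 0.000167 in control brains. Serpinh1, the collagen chaperone, rose in control brains (1.16 ± 0.33, adjusted p = 0.046). Of 24 endoplasmic reticulum chaperone and stress genes, 6 rose in depleted brains and 2, a share near that of all genes, in control brains, led by Trib3, a target of the integrated stress response, at 1.97 ± 0.28, adjusted p = 0.00137 in depleted and 1.65 ± 0.26, adjusted p = 0.00248 in control brains. Trib3 was weakly expressed, at no more than 0.903 CPM in any sham library and 2.98 CPM in any stroke library. Of 20 HSP90 co-chaperones, 3 rose in depleted brains (Fkbp5, Fkbp4 and Ptges3) and 0 passed in control brains, where edgeR gave 4 at an unadjusted p under 0.05. Of 13 mitochondrial quality control genes, 2 rose and 1 fell in depleted brains and 0 passed in control brains, where edgeR gave 1 at an unadjusted p under 0.05. Of 10 genes of aggregate handling, 4 rose in depleted brains, and 1 rose and 1 fell in control brains. Counts of 1 or 2 genes in lists of this size are near the shares over all genes.

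Microglia depletion without stroke (sham_MG_DE against sham_MG_CON) moved few members. Of the 80 tested, 6 were higher (6.85% of all genes) and 3 lower (4.49%), shares near the background, with a median log2 fold change of 0.04 against -0.00 over all genes. The higher genes were Bag6, Dnaja4, Dnajc2, Dnajc6, Dnajc11 and Dnajc25, and the lower ones were Hspa8, Bag1 and Dnajc3. Bag6, a cytosolic chaperone of membrane proteins in transit, had 198, 237, 234 and 227 CPM in sham_MG_DE, against 190.5, 181 and 176 CPM in sham_MG_CON (log2 fold change 0.29 ± 0.07, adjusted p = 0.0176). Hspa8 had 817, 623, 680.1 and 622 CPM in sham_MG_DE, against 1074, 864 and 866 CPM in sham_MG_CON (log2 fold change -0.45 ± 0.13, adjusted p = 0.0434). Both pairs of groups were free of overlap. Bag1, a nucleotide exchange factor that links HSP70 to the proteasome, had 60.5, 48, 45.8 and 47 CPM in sham_MG_DE, against 72.3, 58.3 and 69.6 CPM in sham_MG_CON, which overlap through replicate 1 of sham_MG_DE (log2 fold change -0.41 ± 0.10, adjusted p = 0.0268). Dnajc6 (auxilin, which uncoats clathrin vesicles with Hspa8) changed by 0.21 ± 0.06, adjusted p = 0.0394, Dnajc11 by 0.27 ± 0.08, adjusted p = 0.0394, Dnajc2 by 0.36 ± 0.10, adjusted p = 0.0356, Dnajc25 by 0.61 ± 0.17, adjusted p = 0.0326 and Dnaja4 by 0.29 ± 0.08, adjusted p = 0.0328 on the log2 scale. Of the exonic length of Dnaja4, 44.1% overlaps Wdr61 on the opposite strand.

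Of the 8 members of the endoplasmic reticulum lumen, 1 fell and 0 rose in depleted sham brains, and 6 had a log2 fold change below 0, with a median of -0.20. Dnajc3 (p58IPK, a J protein of the lumen that restrains PERK) had 59.3, 49.8, 56.2 and 57.8 CPM in sham_MG_DE, against 68.7, 69.8 and 67.1 CPM in sham_MG_CON, without overlap, and fell (log2 fold change -0.30 ± 0.07, adjusted p = 0.0225). Hspa5 had 142.2, 113, 72.2 and 83.3 CPM in sham_MG_DE, against 188, 160.1 and 191 CPM in sham_MG_CON. The groups did not overlap and replicate 1 was the highest depleted library, but the gene did not pass (log2 fold change -0.81 ± 0.26, adjusted p = 0.059), nor did Hsp90b1 (log2 fold change -0.29 ± 0.10, adjusted p = 0.0755). Summed over the 8 luminal members, sham_MG_DE had 716, 630.2, 644 and 622 CPM, against 815, 765 and 829.8 CPM in sham_MG_CON. In the wider list of 24 endoplasmic reticulum genes that hold no member, 7 fell and 0 rose, against 4.49% lower and 6.85% higher over all genes, with a median of -0.31 on the log2 scale. The 4 with the largest changes were Sdf2l1 (-0.82 ± 0.16, adjusted p = 0.00914), Pdia4 (-0.75 ± 0.16, adjusted p = 0.0137), Manf (-0.54 ± 0.12, adjusted p = 0.016) and the stress transcription factor Xbp1 (-0.51 ± 0.13, adjusted p = 0.0252). The list was chosen with earlier results of these data known, and its calls were not followed through the alternative settings. Microglial markers summed to 33.3 to 63.4 CPM in sham_MG_DE, against 256 to 276 CPM in sham_MG_CON, and astrocyte markers to 1379 to 3877 CPM, against 3994 to 4030 CPM. Slc1a2, the largest term of the astrocyte sum, had 2879, 488, 2208 and 2353 CPM in sham_MG_DE, against 3075, 3076 and 3103 CPM in sham_MG_CON. Slc1a3 was also lower without overlap, Gfap was higher without overlap, and Aqp4, Aldh1l1 and Gja1 overlapped. The part of these cells in the differences was not tested. Among the further heat shock factor targets, Cryab, a small heat shock protein of oligodendrocytes and astrocytes, fell in sham_MG_DE (-0.81 ± 0.15, adjusted p = 0.00711), 1 of 2 that fell among the 14 tested. Oligodendrocyte markers summed to 1159 to 1232 CPM in sham_MG_DE, against 1452 to 1650 CPM in sham_MG_CON, and their part in the fall of Cryab was not tested. Of the 20 HSP90 co-chaperones 2 rose and 3 fell, of the 13 mitochondrial quality control genes 1 rose, of the 10 genes of aggregate handling 1 rose, and of the 14 TRiC and prefoldin genes 0 passed (2 at an unadjusted p under 0.05 with edgeR), beside 6.85% higher and 4.49% lower over all genes.

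Replicate 1 of sham_MG_DE decided part of this comparison. Without it, 11 members were lower, Hspa5 (log2 fold change -1.0, adjusted p = 0.0153), Hsp90b1 (-0.35, adjusted p = 0.0257), Hsph1 (-0.59, adjusted p = 0.0427) and Dnajb1 (-0.34, adjusted p = 0.0181) among them, and 9 were higher. In the same setting 9.97% of all genes were lower and 12.1% higher, against 4.49% and 6.85% with that library, so the counts of members were near the share over all genes both ways. Of the 9 calls made with it, 0 held in every alternative. Without sham_MG_CON replicate 3 or sham_MG_DE replicate 2 all 9 ended, and without sham_MG_CON replicates 1 or 2 or sham_MG_DE replicates 3 or 4 most did, with adjusted p of at most 0.217 in any setting. The calls of Hspa8, Dnajc6 and Dnajc11 also ended without either tMCAO_MG_DE library or some tMCAO_MG_CON library. The signs of the 9 fold changes were kept.

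**Figure D4:**
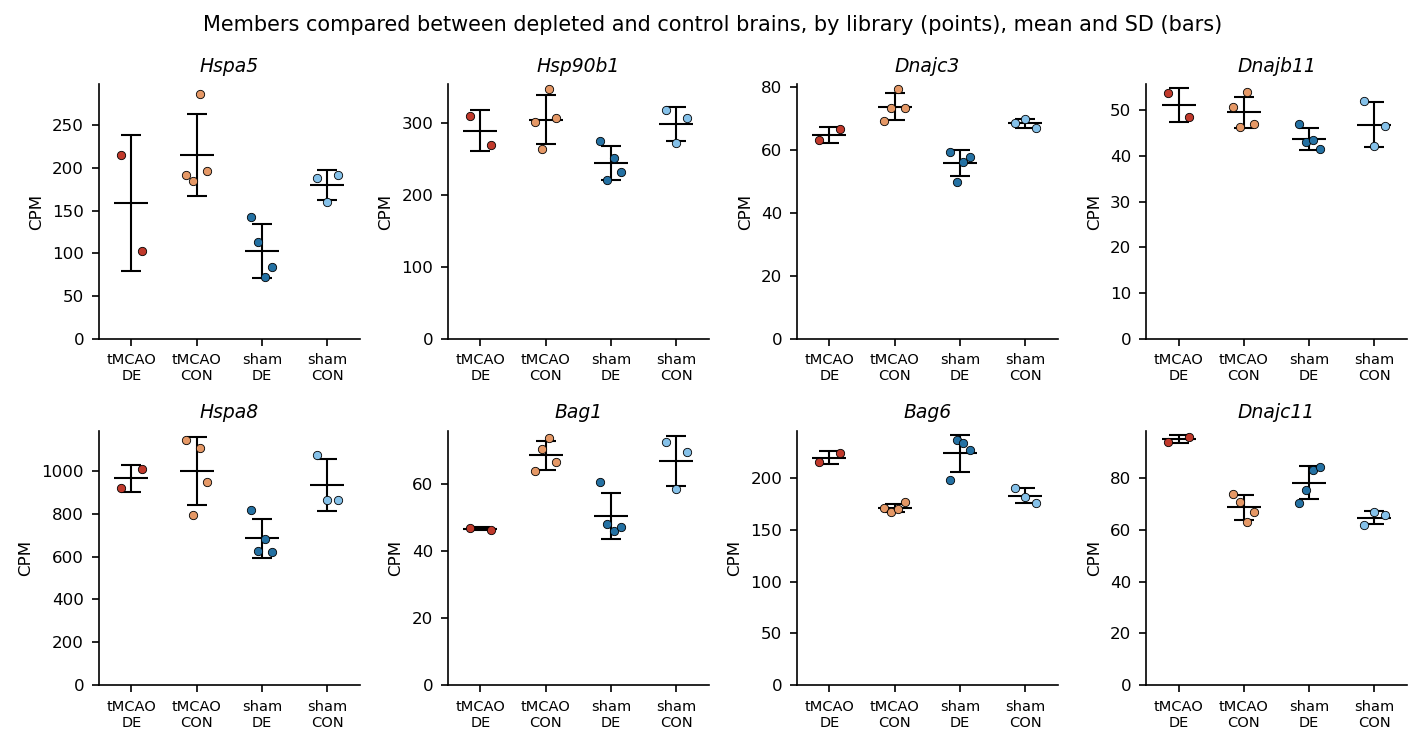
CPM (vertical axis of each panel, from 0) of 8 members in every library (points) of the 4 groups, with the group mean and SD (bars). Hspa5 is lower in each sham_MG_DE library than in each sham_MG_CON library, Bag1 and Bag6 differ between depleted and control brains with and without stroke, and the 2 tMCAO_MG_DE libraries differ for Hspa5.

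In stroke brains, depletion was compared between tMCAO_MG_DE and tMCAO_MG_CON, which sets chaperone expression after occlusion with depleted microglia beside that with microglia present. Of the 80 genes, 10 were higher and 2 lower, against 9.36% and 9.26% of all genes, and libraries did not overlap for 22 higher and 7 lower members, against 22.6% and 22.9% of all genes. The inducible HSP70 genes were among the higher ones. Hspa1a was higher by 1.62-fold (log2 fold change 0.70 ± 0.15, adjusted p = 0.00875), and Hspa1b by 1.68-fold (log2 fold change 0.75 ± 0.21, adjusted p = 0.0251), and for both genes the lower tMCAO_MG_DE library, replicate 2, lay above the highest tMCAO_MG_CON library. Hspa1l (0.66 ± 0.21, adjusted p = 0.0446) and Hspd1-ps3 (0.43 ± 0.14, adjusted p = 0.043) were also called, with the limits on their counts given above. Hspa9 had 391.8 and 383 CPM in tMCAO_MG_DE, against 339, 252, 275 and 246 CPM in tMCAO_MG_CON (log2 fold change 0.48 ± 0.11, adjusted p = 0.0136). Dnajc11, a J protein of the mitochondrial contact sites, had 93.9 and 96.1 CPM in tMCAO_MG_DE, against 74, 70.8, 63.2 and 66.9 CPM in tMCAO_MG_CON (log2 fold change 0.47 ± 0.09, adjusted p = 0.00457). Neither gene overlapped between the groups. Bag6 (0.36 ± 0.07, adjusted p = 0.00758), Dnajc6 (0.21 ± 0.07, adjusted p = 0.0446), Dnaja1 (0.30 ± 0.10, adjusted p = 0.0473) and the weakly expressed Hsf5 (1.41 ± 0.38, adjusted p = 0.0225) completed the higher genes. Bag1 was lower, with 46.9 and 46.2 CPM in tMCAO_MG_DE, against 63.8, 70.2, 73.6 and 66.4 CPM in tMCAO_MG_CON (log2 fold change -0.56 ± 0.12, adjusted p = 0.00944), and so was the testis gene Dnajb3, under 1.2 CPM in every library (log2 fold change -1.47 ± 0.46, adjusted p = 0.0436). The HSP90 pair and the small heat shock proteins passed in no case, with Hspb1 at -0.45 ± 0.20, adjusted p = 0.137 and Hsp90aa1 at 0.00 ± 0.18, adjusted p = 0.999.

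The depletion comparisons share no library but share the estimate of spread. Bag1, Bag6, Dnajc6 and Dnajc11 were called in the same direction in both, which is 33.3% of the 12 calls in stroke brains and 44.4% of the 9 in sham brains. Over all genes tested, 1027 were called in the same direction in both, 32.6% of the 3155 calls in stroke brains and 53.5% of the 1921 in sham brains, so the overlap among members was near that of all genes. In tMCAO_MG_DE and sham_MG_DE, Bag6 had 215 to 237 CPM in 5 of 6 libraries and 198 in replicate 1 of sham_MG_DE, against 167 to 190 CPM in the 7 control libraries. Among the related genes, Pdia4 (-0.90 ± 0.19, adjusted p = 0.00806) and Sdf2l1 (-0.86 ± 0.18, adjusted p = 0.00847) were lower in tMCAO_MG_DE than in tMCAO_MG_CON, while Ppp1r15a (0.54 ± 0.17, adjusted p = 0.0381) and Atf4 (0.73 ± 0.18, adjusted p = 0.018), genes of the integrated stress response, were higher. Fkbp5, an HSP90 co-chaperone and glucocorticoid target, was higher (1.45 ± 0.36, adjusted p = 0.0158), as were Clpx, a mitochondrial unfoldase (0.62 ± 0.09, adjusted p = 0.00162), and Unc45a (0.69 ± 0.12, adjusted p = 0.00408). In all, 3 of the 24 endoplasmic reticulum genes were higher and 4 lower, and of the 20 HSP90 co-chaperones 3 were higher and 2 lower. Of the 13 mitochondrial quality control genes 4 were higher and 1 lower, of the 14 further heat shock factor targets 2 and 1, of the 10 genes of aggregate handling 3 and 0, and of the 14 TRiC and prefoldin genes 1 and 0. With 9.36% of all genes higher and 9.26% lower, most of these counts are near the share over all genes. Astrocyte markers summed to 1918 and 3578 CPM in tMCAO_MG_DE, against 3617 to 4406 CPM in tMCAO_MG_CON, and microglial markers to 39.1 and 44.2 CPM, against 274 to 328 CPM. Of the astrocyte markers, Slc1a2 had 511 and 2206 CPM in tMCAO_MG_DE, against 2201 to 2579 CPM in tMCAO_MG_CON. Gfap and Aqp4 were lower in tMCAO_MG_DE without overlap, and Slc1a3, Aldh1l1 and Gja1 overlapped. The part of these cells in the differences was not tested. None of the 12 calls among members held in every alternative: without tMCAO_MG_DE replicate 1 the adjusted p of Hspa1a was 0.0947, without replicate 2 those of Bag6 and Dnajc11 were 0.0921 and 0.0630, and without either the calls of Hspa1b, Hspa9, Bag1 and others ended. Leaving out tMCAO_MG_CON replicate 3 also ended the calls of Hspa1b, Hspa1l, Hspd1-ps3, Dnaja1 and Dnajc6, and the last 4 of these and Dnajb3 also ended without several other libraries, while that of Hsf5 ended without tMCAO_MG_CON replicate 4.

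Whether stroke acted differently in depleted and control brains was tested by the interaction, the log2 fold change in depleted brains minus that in control brains. None of the 80 genes passed with edgeR, against 0.0472% of all genes in either direction (0.0059% higher and 0.0413% lower), while 11 had an unadjusted p under 0.05. The share of all genes under that unadjusted p was not computed, so the 11 cannot be read as an excess among members. Among the 24 genes called in either stroke comparison, the 8 largest differences were those of Hspa1a (log2 fold change 0.90 ± 0.22, adjusted p = 0.207), Hspa1b (log2 fold change 0.88 ± 0.30, adjusted p = 0.376), the weakly expressed Hsf5 (log2 fold change 0.84 ± 0.56, adjusted p = 0.656), Hspb6 (log2 fold change -0.71 ± 0.27, adjusted p = 0.436), Hspb1 (log2 fold change -0.57 ± 0.29, adjusted p = 0.549), Hsph1 (log2 fold change 0.56 ± 0.29, adjusted p = 0.555), Hspe1 (log2 fold change 0.56 ± 0.20, adjusted p = 0.403) and Dnajb1 (log2 fold change 0.53 ± 0.14, adjusted p = 0.231). DESeq2 gave 11 members at an unadjusted p under 0.05, again without the share of all genes. It called 1, Hspa1a (0.90, adjusted p = 0.0301), and limma on log2 FPKM called 0. These p-values do not show that the stroke response was alike in depleted and control brains, since tMCAO_MG_DE has 2 libraries.

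Of the 89 genes, 9 gave no test: Dnajc22 was absent from 2 tables, and Dnaja1-ps, Dnajb7, Dnajb13, Dnajc5g, Hsf2bp, Hspa9-ps1, Hspd1-ps4 and Hspe1-ps3 were removed as too low, at no more than 0.609 CPM in any library. Bag2, Hspa12b, Hspa13 and Dnajb11 passed in none of the 5 comparisons.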

How the data were processed

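RNA-seq libraries of 13 mouse brains were analysed from 4 deposited tables, 1 per group. The counts per gene are whole numbers that the authors deposited without normalization, per the file headers. FPKM values beside them were made by the authors, and Cufflinks 2.1.1, Cuffdiff and build mm10 are named in the submitters' processing notes. The sources used here do not give the aligner, annotation, counting tool or strand setting. Groups came from the sample titles. Entries sharing a symbol were summed, and 25 or 26 date-like names per table were dropped. Libraries held 16240416 to 22081167 counts.

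edgeR 4.0.16 (R 4.3.3) was run on the counts with TMM scaling and filterByExpr, which kept 16940 genes and removed 4116. The quasi-likelihood test was fitted to the 4 groups together, contrasts were taken for the 4 comparisons and the interaction, and p-values were adjusted by Benjamini-Hochberg over all genes tested, with a threshold of 0.05. Every adjusted p printed is from this test unless DESeq2 or limma is named. Shares of all genes at an unadjusted p under 0.05 were not computed. The error of a log2 fold change is a standard error approximated as the absolute change over the square root of its F statistic. CPM values are TMM-scaled. FPKM was used where genes are set beside each other, and in limma 3.58.1 as log2(FPKM + 0.1). DESeq2 1.42.0 was an alternative. Scripts were tested on simulated data. Replicate numbers were not used to pair libraries: deviations of same-numbered libraries correlated at -0.0848 to 0.116, over 0.1 in 1 of 16 pairs.

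The members, classes, pathway lists and cell type markers were chosen with earlier results of these data known. Members named are a fixed core by role, those past the threshold without overlap between groups, and those with no test, with up to 4 genes per pathway list and comparison. Gene positions and exon overlaps came from an annotation of GRCm38, promoters from RefSeq (GRCm38.p6), and figures were drawn with matplotlib 3.10.9.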

Additional observations from a re-analysis of the deposited data

Results flagged for a closer look

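In the groups of 4, 102 sets of values were examined, those of the named members and of the sum over all members. Of these, 7 had 1 library further from the others than Dixon's 95% limit allows, and chance gives about 1 in 20. In tMCAO_MG_CON, replicate 3 had 287 CPM of Hspa5, the endoplasmic reticulum HSP70, where the other 3 had 185 to 196 CPM, and 17.2 CPM of Bag3, where the others had 15.1 to 15.3 CPM. Replicate 1 of that group had 287 CPM of Hspa12a (others 257 to 261 CPM), 57.2 CPM of Hspe1 (others 44.5 to 45.9 CPM) and 8.66 CPM of Bag2 (others 7.19 to 7.41 CPM). In sham_MG_DE, replicate 1, which stood apart on the first principal component, had 60.5 CPM of Bag1 (others 45.8 to 48.0 CPM) and 3.46 CPM of Hspa1l (others 2.13 to 2.34 CPM).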

How the results depend on the processing

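Over 22 alternatives (another scaling, DESeq2, no filter, limma on FPKM, each library left out and others), no member's called fold change turned its sign. The counts of members higher in the stroke comparisons moved by more than 1.5 times only without a tMCAO_MG_DE library. Leaving out 1 library at a time gave 12 to 20 higher and 0 to 3 lower members for stroke in depleted brains, 11 to 17 and 0 to 4 for stroke in control brains, 1 to 13 and 0 to 3 for depletion in stroke brains, 0 to 9 and 0 to 11 for depletion in sham brains, and 0 and 0 for the interaction. Members lower with stroke in depleted brains (2) numbered 5 by DESeq2, 0 by each of 3 limma settings, and 0 from the compared groups alone. Members lower with stroke in control brains (3) numbered 0 by each limma setting. For depletion in sham brains, DESeq2 gave 6 lower (against 3), and the compared groups alone gave 0 higher (against 6) and 0 lower. For depletion in stroke brains, limma with a pseudocount of 0.1 gave 6 higher (against 10), or 5 with a mean FPKM of at least 1, and the count lower (2) was 1 with no filter and 1 from the compared groups alone. For the interaction, DESeq2 gave 1 higher, Hspa1a, against 0. Without both libraries with high neutrophil markers, an alternative chosen after seeing the data, 1 member was lower in each stroke comparison, 0 were higher and 0 lower for depletion in sham brains, and 6 were higher and 1 lower for depletion in stroke brains. The causes were not tested, and fewer libraries also leave less power. Genes of the pathway lists were not followed through these alternatives.

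With the replicate number as a block, members lower with stroke in depleted brains numbered 0, depletion in sham brains gave 0 higher and 1 lower, and depletion in stroke brains 6 higher and 1 lower. The numbers are not known to pair animals, and 5 of 13 libraries correlated best with a library of their own number. The 2 libraries of tMCAO_MG_DE limit every comparison that uses them, and members under 1 CPM rest on few reads.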
